A study of Mus musculus with 4 samples.

Results

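Quiescent muscle stem cells that carried much Fos RNA were compared with quiescent cells that carried little, within each of 2 muscles. Muscle stem cells had been sorted by green fluorescence from Tg:Pax7-nGFP mice aged 2 to 4 months, in which a nuclear GFP is made under Pax7 control, so a cell enters the sort only if it has made GFP. One library was made from extraocular muscle (EOM), the small muscles that turn the eyeball, and one from the tibialis anterior (TA) at the front of the shin. Both were run on the 10x Genomics droplet platform directly after sorting and are called quiescent in the labels. The other 2 libraries of the series, activated cells of the same muscles grown for 4 days on Matrigel at 3% oxygen, are used here for levels only. How many animals went into a library is not given in the sources used here.

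The cells were chosen by their own RNA. In each library, cells with 2000 or more UMIs (unique molecular identifiers, the counted molecules), of which mitochondrially encoded genes (mt-) gave at most 10%, were ranked by a score, the summed UMIs of Fos, Egr1, Nr4a1 and Btg2 per 10000 UMIs of the cell. The ranked cells were cut into 4 groups of nearly equal size, and the 25% with the highest scores (high-score cells) were set against the 25% with the lowest (low-score cells). In EOM 3653 of 4262 barcodes passed the filter and each end group held 913 cells. In TA 3020 of 5225 passed and each end group held 755. The mt- limit was exceeded by 497 EOM and 2115 TA barcodes. The 2 ends together hold 3336 of 6673 quiescent cells, and the whole series has 23170 barcodes. Every gene of these cells is thus selected on, or measured beside, the score, each condition has 1 library, and cells of a library are not replicates. All differences are descriptions without a test, and every interval covers counting error only.

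Fos, Jun and their relatives form AP-1, a dimeric transcription factor. Their genes belong to the immediate early genes, which are transcribed within minutes of a stimulus without new protein synthesis, from promoters bound in advance by factors such as CREB and SRF, and whose RNAs are short-lived. Muscle stem cells are freed from their fibres by enzymes and mechanical force, and induction of immediate early and heat shock genes during that isolation is well known in this cell type. Egr1 is a zinc finger factor, Nr4a1 an orphan nuclear receptor, and Btg2 an antiproliferative protein that recruits the enzymes which shorten poly(A) tails.

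Promoters of 3 of the 4 score genes are shown, marked for the cyclic AMP response element (CRE) or its core, a CREB binding motif of such genes. The lines give the 250 bases before the RefSeq start on the gene's strand (GRCm38.p6), with the CRE TGACGTCA or its core TGACG, on either strand, in capitals. The Fos window is chr12:85473640-85473889 on the plus strand, the Nr4a1 window chr15:101266596-101266845 on the plus strand and the Btg2 window chr1:134079156-134079405 on the minus strand. The Egr1 promoter was not analysed here.
Fos: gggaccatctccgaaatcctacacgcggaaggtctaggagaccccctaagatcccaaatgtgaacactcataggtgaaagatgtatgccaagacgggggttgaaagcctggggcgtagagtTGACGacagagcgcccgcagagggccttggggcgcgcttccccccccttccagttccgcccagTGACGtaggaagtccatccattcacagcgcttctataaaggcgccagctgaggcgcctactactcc
Nr4a1: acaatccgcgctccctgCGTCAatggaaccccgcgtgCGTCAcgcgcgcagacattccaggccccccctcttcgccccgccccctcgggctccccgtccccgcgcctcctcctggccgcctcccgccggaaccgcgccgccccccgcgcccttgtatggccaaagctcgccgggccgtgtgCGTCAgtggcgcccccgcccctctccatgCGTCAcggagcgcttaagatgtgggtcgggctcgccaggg
Btg2: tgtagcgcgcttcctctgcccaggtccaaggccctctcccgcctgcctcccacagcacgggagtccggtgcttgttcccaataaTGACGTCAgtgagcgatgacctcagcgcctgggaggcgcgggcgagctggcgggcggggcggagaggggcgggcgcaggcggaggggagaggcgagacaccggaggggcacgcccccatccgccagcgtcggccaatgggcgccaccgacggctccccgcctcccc
The Fos window holds the core at 129 and 66 bases before the start, and a TATAAA at 33 bases. Nr4a1 holds 4 cores, all on the opposite strand, and Btg2 holds a whole CRE 166 bases before its start. In RefSeq promoters of all genes, windows of the same length held the core in 17.8% of cases and the whole CRE in 1.55%. In the 5204 genes that passed the expression limit given below in both muscles, these shares were 30.9% and 3.35%.

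Score genes spanned a wide range among these cells. In EOM Fos (chromosome 12, 85473890 to 85477273, GENCODE vM21) was at 64.3 CPM (UMIs summed over a group of cells and scaled to a total of 1000000) in low-score cells, 336 and 1113 in the groups between and 8299 in high-score cells. In TA the 4 values were 37.8, 165, 517 and 6643 CPM. Fos made up 56.0% of the score's UMIs in EOM and 52.8% in TA, so the score leans on it. Egr1 went from 60.1 to 3927 CPM in EOM and from 35.0 to 3010 in TA, Nr4a1 from 8.20 to 295 and from 9.56 to 518, and Btg2 from 39.3 to 1357 and from 32.4 to 1415. These 4 differences are fixed by the choice of cells. Ranking by the other 3 genes alone left Fos 25.2-fold higher in EOM (95% interval 23.9 to 26.6) and 39.4-fold in TA (36.5 to 42.7). With its own UMIs kept out of the ranking in the same way, Egr1 was 19.3-fold and 22.9-fold higher, Nr4a1 14.8-fold and 20.3-fold, and Btg2 15-fold and 11.4-fold. The 4 genes were therefore high in the same cells.

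**Figure D1:**
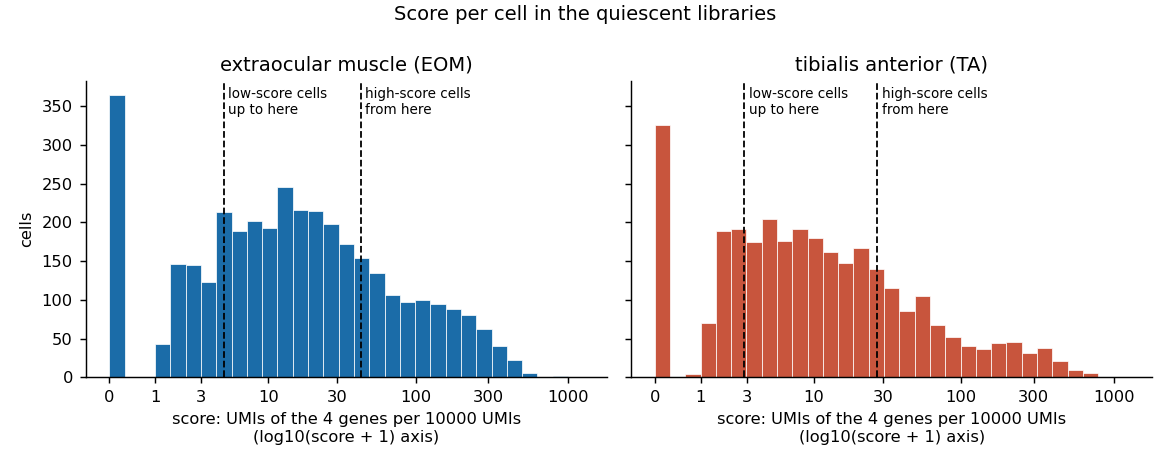
Cells (y axis) by score (x axis, log10 of score + 1) in quiescent EOM and TA, with dashed lines at the limits of both end groups. Scores form a broad spread with a separate bar at 0, which holds 364 EOM and 326 TA cells, and neither limit falls in a gap.

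No gap in the scores marks either limit. The lowest score among high-score cells was 43.05 in EOM, where the next cell below also had 43.05, and 27.55 against 27.5 in TA. The highest score among low-score cells was 4.619 in EOM with 4.62 just outside, and 2.847 with 2.849 just outside in TA. Median scores over the 4 groups were 1.78, 8.43, 23.8 and 108 in EOM and 1.40, 5.15, 15.2 and 63.6 in TA. No UMI of a score gene was found in 9.96% of EOM and 10.8% of TA cells. High-score cells were not uniform: split again into 4 parts by score, their Fos level ran from 2570 to 19240 CPM in EOM and from 1206 to 20070 in TA, and Junb, outside the score, from 1837 to 5691 and from 1125 to 6354. In the activated libraries the median score was 0.675 (EOM) and 0 (TA), and 0% of those cells reached the limit of the high-score cells.

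Depth moved with the score. The median low-score cell had 4994 UMIs in EOM and 5351 in TA, against 4394 and 4469 for high-score cells. Score groups taken within 10 depth bins, with median depths of 4723 and 4726 UMIs in EOM and 5106 and 5108 in TA (high-score and low-score), gave 272 genes at least 2-fold higher and 382 lower in the high-score cells of EOM and 347 and 349 in TA. Median mitochondrial shares were 7.05% and 6.68% (bottom and top) in EOM and 7.76% and 8.04% in TA. The muscle stem cell markers were present at both ends, with 12 of 12 measured and a summed level of 5155 and 4649 CPM in EOM and 6793 and 5808 in TA. Endothelial markers summed to 5.05 and 8.78 CPM in EOM, where 6 of 10 were at 0 at either end. In TA they summed to 9.09 and 174 CPM, with 9 of 9 measured markers higher, and 9 high-score cells held 10 or more of their UMIs, against 0 low-score cells. Macrophage markers in TA went from 5.83 to 62.3 CPM, with 4 of 5 measured markers higher and 1 such cell. Tenocyte markers went from 4.2 to 28.5 CPM and Schwann markers from 97.2 to 236 CPM, with 3 of 3 measured markers higher in both lists. Mural markers summed to 107 and 127 CPM, with 3 of 4 higher. Erythroid markers went from 3550 CPM in low-score cells, with 2 such cells, to 31.2, with 1. Fabp4, a fatty acid binding protein of capillaries, Aqp1, Ly6c1 and Dcn, a matrix proteoglycan, had TA log2 ratios of 7.09, 5.96, 5.09 and 4.63. Without cells holding 3 or more UMIs of other cell types' markers (Pmp22, fibre, mural and fibro-adipogenic markers aside) or 20 or more of Dcn, a choice made after the data were seen, these were 1.08, 0.68, 0.09 and 0.06. The counts of genes called below were then 293 higher and 410 lower in EOM and 348 and 417 in TA. The barcodes shared by the EOM and TA libraries numbered 6, of which 3 passed the filter.

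Across genes the ends differed in both directions. Of 5747 EOM genes that reached 20 CPM at one end or the other, 298 were at least 2-fold higher in high-score cells (5.19%) and 408 at least 2-fold lower (7.1%). In TA these were 385 (6.98%) and 416 (7.54%) of 5518. Of the calls, 42.2% were higher in EOM and 48.1% in TA. Scaling by median-of-ratios factors made that 27.2% and 28.8%, and by TMM factors 34.1% and 33.0%. The median log2 ratio of these genes was -0.06 in EOM and -0.02 in TA. It moved to -0.14 and -0.19 with TMM and to -0.20 and -0.23 with median-of-ratios factors, so ratios smaller than that shift carry no direction.

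The muscles were measured on separate cells. Both called 173 genes higher, which is 58.1% of the EOM and 44.9% of the TA genes, and 236 lower, which is 57.8% and 56.7%. A gene called in one muscle had the same sign in the other for 295 of 298, 357 of 385, 392 of 408 and 405 of 416 (higher in EOM, higher in TA, lower in EOM, lower in TA), and 0 genes were called in opposite directions. Over 5204 genes at 20 CPM or more in both, the log2 ratios of the muscles had a Pearson's r of 0.865 and a Spearman's rho of 0.850, given as a description across genes. Most called genes moved in steps over the 4 score groups. The level changed in one direction at each step for 243 of 298 higher and 334 of 408 lower genes in EOM and for 331 of 385 and 369 of 416 in TA, against 36.7% and 42.4% of all tested genes. The choice of genes by a 2-fold difference between the ends itself raises the share.

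**Figure D2:**
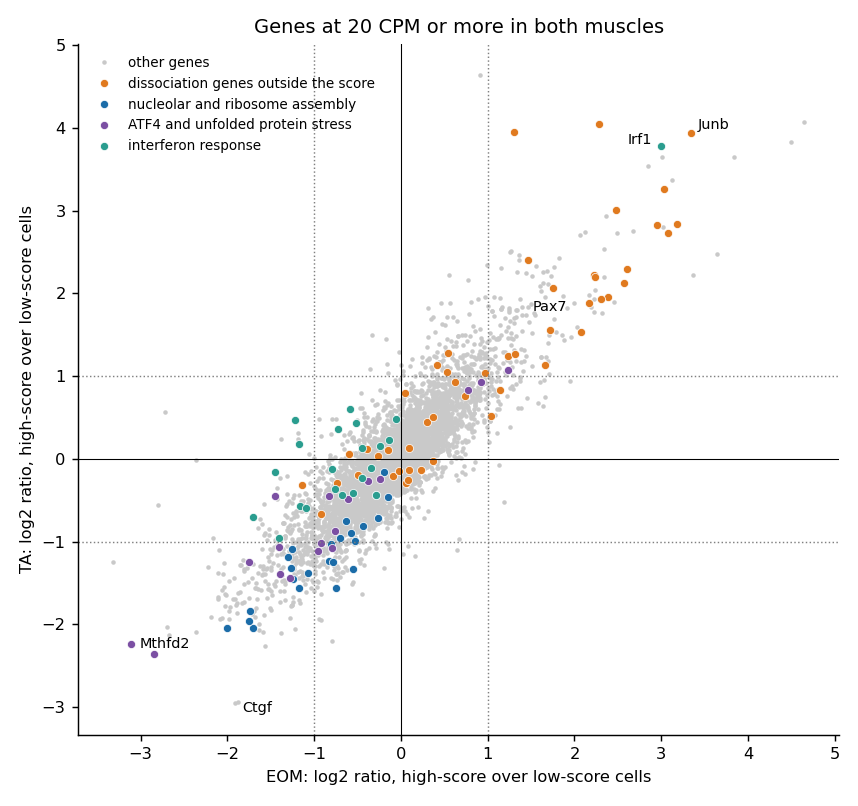
Each point is a gene at 20 CPM or more in both muscles, with the log2 ratio of high-score over low-score cells in EOM (x axis) and TA (y axis); colours mark 4 gene lists and dotted lines the 2-fold limits. Points lie along the diagonal (r = 0.865), dissociation genes mostly at the upper right and nucleolar and ATF4 genes at the lower left, while most interferon genes lie left of 0 in EOM and near 0 in TA.

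Most AP-1 factors outside the score that were called were higher in high-score cells. List members were counted at 5 CPM or more, where 8.67% of all genes were 2-fold higher and 6.96% lower in EOM, and 12.6% and 6.65% in TA. Of the 10 AP-1 factors measured outside the score, 5 were higher and 1 lower in EOM, and 7 higher and 1 lower in TA. Junb was at 329, 694, 1236 and 3347 CPM over the score groups of EOM (10.2-fold between the ends, 9.66 to 10.7) and at 189, 334, 792 and 2900 in TA (15.4-fold, 14.3 to 16.5). Jun was 8.47-fold and 6.65-fold higher, Fosb 5.58-fold and 8.04-fold, and Atf3, a stress-induced partner of AP-1, 5.95-fold and 4.39-fold (EOM, then TA, in this and later pairs). Jund was less unequal, at 4935 and 7202 CPM in EOM and 2373 and 5750 in TA. Fosl1 was the 1 member called lower, 2.93-fold (2.50 to 3.46) and 2.88-fold (2.56 to 3.25). Maff, a small Maf factor, was 2.2-fold and 1.78-fold higher, and Fosl2 1.5-fold and 2.34-fold.

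Other early transcription factors divided into those high in the same cells as Fos and those that were not. The list held factors of the Egr, Nr4a, Klf and Ier kinds and others such as Myc, Arid5b, Cebpb and Cebpd. Of 21 measured, 10 were higher and 1 lower in EOM, and 12 and 0 in TA. Ier5l stood at 5.68 and 94.5 CPM in EOM (16.6-fold, 11.3 to 25.6) and at 6.06 and 87.7 in TA (14.5-fold, 9.69 to 22.5). Ier3, which modulates survival signalling, was 9.19-fold and 7.28-fold higher, Ier2 5.00-fold and 3.83-fold, Egr2 8.10-fold and 7.55-fold and Egr3 5.11-fold and 4.31-fold. Klf2, also an endothelial gene, showed an uneven pair, 2.48-fold in EOM (217 to 538 CPM) and 16.0-fold in TA (26.3 to 422 CPM). Its log2 ratios were 1.31 and 3.95, and 1.29 and 3.79 without the cells of other types. The difference between the muscles was not tested. Klf4 was higher by 2.36-fold and 2.37-fold from a high base of 994 and 852 CPM. Ier5, Myc and Arid5b, also early genes, leaned the other way: Ier5 was at 656 and 438 CPM in EOM and 1039 and 644 in TA, Myc at 428 and 257, and 621 and 507, and Arid5b, called in EOM only, at 1042 and 442, and 1159 and 858. Klf6 was nearly level (448 and 405, and 516 and 554 CPM).

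Genes of mRNA decay, and in EOM those that end growth signals, were called higher but not lower. Of 7 mRNA decay genes 5 were higher in EOM and 4 in TA, and 0 were lower; the EOM count was 3 with score groups taken within depth bins, with separate UMIs for score and sums, and with TMM factors. Zfp36, which binds AU-rich elements of unstable messages, went from 129 to 1062 CPM in EOM (8.22-fold, 7.56 to 8.96) and from 104 to 1003 in TA (9.67-fold, 8.76 to 10.7), and its relatives Zfp36l1 and Zfp36l2 were 4.68-fold and 3.84-fold, and 4.70-fold and 3.45-fold higher. Tob1 and Tob2, relatives of Btg2, were 6.46-fold and 6.85-fold, and 3.2-fold and 3.95-fold higher, whereas Btg1 was at 911 and 1055 CPM in EOM and 1357 and 1485 in TA, and Btg3 was lower (1.64-fold and 2.43-fold). Of the signal feedback genes, 13 of 26 were higher and 0 lower in EOM, and 9 of 27 higher and 4 lower in TA. Socs3, an inhibitor of cytokine receptors, was at 194 and 945 CPM in EOM (4.88-fold) and 59.0 and 988 in TA (16.8-fold, 14.7 to 19.1). Dusp1, a MAP kinase phosphatase, was 2.50-fold and 2.41-fold higher, Gadd45g 4.64-fold and 3.76-fold and Gadd45b 2.71-fold and 2.38-fold. The Sprouty inhibitors of receptor tyrosine kinases split. Spry1, known for its part in the return of muscle stem cells to quiescence, was 2.52-fold and 1.88-fold higher and Spry4 3.48-fold and 2.72-fold, while Spry2 was 1.91-fold and 2.44-fold lower and Dusp10 1.68-fold and 2.64-fold lower.

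**Figure D3:**
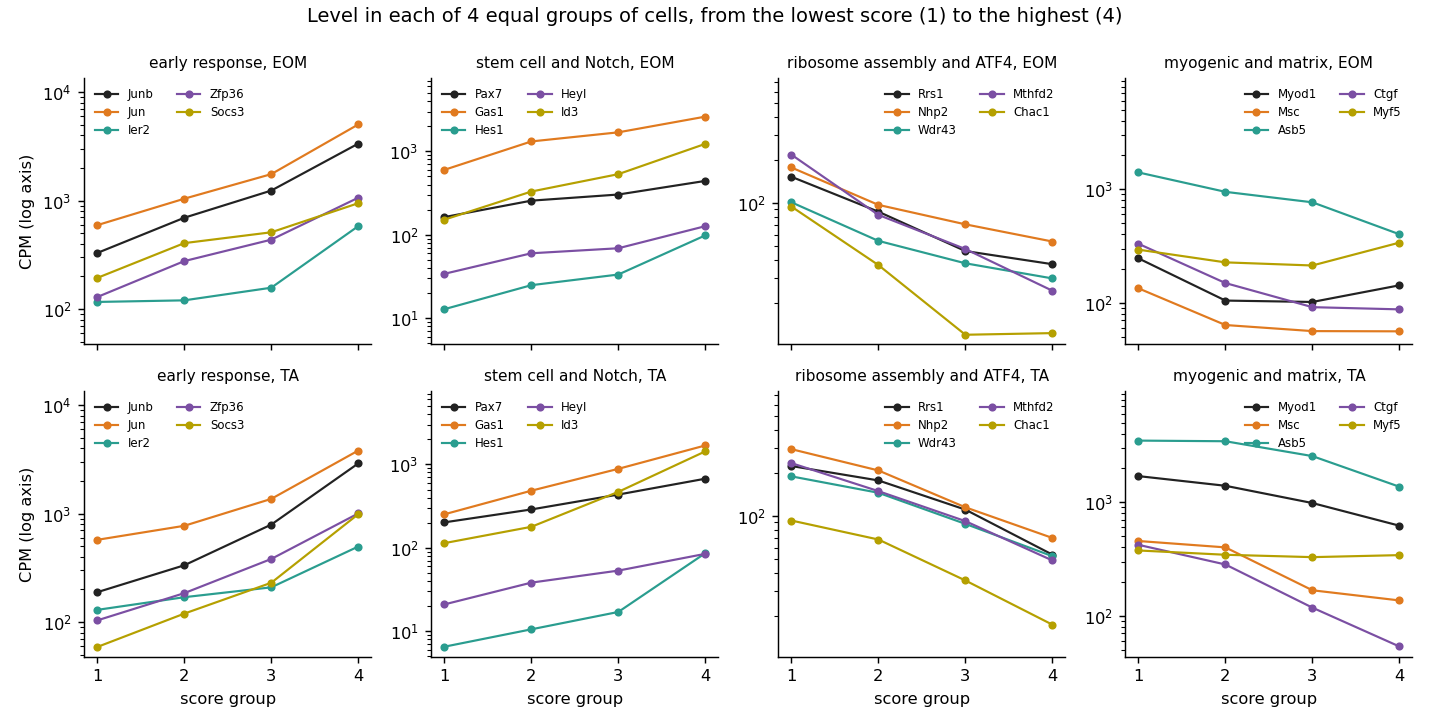
Level in CPM (log y axis) in the 4 score groups (x axis, 1 lowest), EOM above and TA below, for 5 genes in each of 4 groups. Early response genes and Pax7, Gas1, Hes1, Heyl and Id3 climb at each step, least Ier2 between the lowest groups of EOM, where it stands at 116 and 120 CPM; ribosome assembly and ATF4 genes descend except Chac1 between the upper groups of EOM, and Myf5 is the flattest line.

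Genes known to be induced by tissue dissociation, outside the score, were called higher far more often than lower. Of 50 such genes 24 were higher and 1 lower in EOM (median log2 ratio 0.95, against 0.03 for all genes at 5 CPM or more), and 26 and 0 in TA (1.05, against 0.10). The list overlaps the AP-1, early factor and heat shock lists. In the heat shock list itself the change sat in few genes, with 5 of 30 higher in EOM (3 with TMM factors) and 3 of 30 in TA, 0 lower, and medians of 0.08 and -0.12. Hspa1a and Hspa1b, the stress-inducible HSP70 genes, were 6.15-fold and 4.94-fold, and 4.79-fold and 4.63-fold higher. These 2 genes are near-identical copies, so reads may be split between them. Dnajb1, their co-chaperone, went from 97.4 to 458 CPM in EOM and from 75.8 to 356 in TA, 4.71-fold in both. The small heat shock gene Cryab was 1.82-fold and 1.5-fold lower and the mitochondrial chaperone Hspa9 1.80-fold and 1.75-fold lower. Of 17 glucocorticoid and circadian genes 4 were higher and 2 lower in EOM, and 5 and 2 in TA. The glucocorticoid-induced Tsc22d3 was higher by 5.24-fold and 6.08-fold and the clock gene Per1 by 3.70-fold and 4.65-fold, and the clock repressor Nr1d1 was lower by 3.70-fold and 2.50-fold.

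Inflammatory genes did not move as one. Of 13 NF-kB genes, 2 were higher and 3 lower in EOM, and 6 higher (3 with separate UMIs for score and sums) and 1 lower in TA. The feedback inhibitors Nfkbiz (4.26-fold and 2.93-fold) and Tnfaip3 (2.45-fold and 3.78-fold) were higher, and Nfkbia stood at 565 and 1107 CPM in EOM and 259 and 534 in TA, while Nfkb2, a subunit, was 3.10-fold and 2.16-fold lower. Among chemokines, Cxcl1, a neutrophil attractant, was 3.16-fold and 2.2-fold higher and Cxcl5, its relative, 11.5-fold (7.67 to 18.1) and 2.42-fold lower. Tnfsf9, a TNF family ligand, was 9.82-fold and 13.9-fold higher. Irf1, an interferon-induced factor that is also an early gene, was at 64.3 and 521 CPM in EOM (8.10-fold, 7.18 to 9.15) and 12.3 and 182 in TA (14.7-fold, 11.1 to 19.9). The interferon list, Irf1 included, lay the other way in EOM, with 11 of 29 members lower, Irf1 alone higher and a median of -0.67. In TA the list had 0 of 27 lower, 2 higher with Irf1 among them, and a median of -0.12. Gbp2, a guanylate-binding protein, was at 309 and 94.5 CPM in EOM and 94.6 and 57.5 in TA. This difference between the muscles was not tested.

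Stem cell regulators were also unequal between the ends. Pax7, the factor that defines these cells (chromosome 4, 139737062 to 139833528), was at 163, 257, 304 and 442 CPM over the EOM groups (2.71-fold, 2.50 to 2.96) and at 202, 288, 435 and 674 in TA (3.34-fold, 3.09 to 3.61). The EGFP transcript of the transgene, looked at after its values were seen, went from 11.3 to 48.1 CPM in EOM (4.23-fold) and from 10.5 to 41.3 in TA (3.94-fold). Over the list of quiescence genes, 7 of 41 were higher and 2 lower in EOM (median 0.39), and 11 of 43 and 1 in TA (0.46). Gas1, a growth arrest protein of the membrane, was at 600 and 2608 CPM in EOM (4.34-fold) and 252 and 1687 in TA (6.69-fold). Calcr, the calcitonin receptor that holds these cells in quiescence, was 1.36-fold and 2.66-fold higher, Cd34 1.34-fold and 1.58-fold, and Fgfr4 1.97-fold and 2.40-fold. Calcr and Fgfr4 were among the highest members of a list of surface receptors of quiescent cells, which had no common direction. Of that list 0 of 21 were higher and 3 lower in EOM (median -0.09), and 3 of 22 higher and 3 lower in TA (-0.05). Asb5, an ankyrin repeat protein on the quiescence list, was lower, at 1407 and 401 CPM in EOM (3.51-fold, 3.33 to 3.70) and 3497 and 1371 in TA (2.55-fold, 2.47 to 2.63).

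Some Notch effectors and Id genes were higher in high-score cells. Of 12 Notch pathway genes 6 were higher in EOM and 5 in TA (4 without the cells of other types), with 0 lower and medians of 0.92 and 0.90. Hes1, a repressor induced by Notch, was at 12.8, 24.9, 33.4 and 98.4 CPM in EOM (7.67-fold, 5.86 to 10.2) and 6.53, 10.5, 17 and 86.3 in TA (13.2-fold, 8.98 to 20.2). Heyl was 3.72-fold and 4.04-fold higher and Hey1 2.18-fold and 1.96-fold, though in TA Hey1 did not run in steps, at 28.2, 32.3, 22.5 and 55.2 CPM. Also counted higher were Hes6, 5.07-fold and 3.64-fold, and Dll1, 5.63-fold and 2.55-fold. Both had low levels, with Hes6 at 50.1 and 18.7 CPM in high-score cells and Dll1 at 29.6 and 7.73. The Notch receptors and the nuclear partner Rbpj (87.3 and 62.8 CPM in EOM, 81.3 and 91.7 in TA) were not called. Id1 and Id3, inhibitors of myogenic bHLH factors and targets of BMP signals, were 8.46-fold and 7.22-fold, and 8.10-fold (7.5 to 8.77) and 12.6-fold (11.5 to 13.8) higher. In their list 6 of 23 were higher and 1 lower in EOM (4 lower with separate UMIs) and 8 and 0 in TA, among them the feedback inhibitors Smad7 (5.80-fold and 3.88-fold) and Bambi (2.61-fold and 5.50-fold). Smad3, a TGF-beta transducer, was 2.64-fold lower in EOM and 1.64-fold in TA.

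Determination factors parted. Myod1, which commits cells to the myogenic programme, was lower in high-score cells: 246 and 142 CPM in EOM (1.73-fold, 1.57 to 1.91) and 1701, 1398, 985 and 622 over the TA groups (2.74-fold, 2.61 to 2.87). In EOM the groups between were lowest, at 104 and 101 CPM, so its level there did not run in steps. Myf5 was nearly level, at 294 and 338 CPM in EOM and 376 and 342 in TA. Msc, a bHLH repressor, was 2.40-fold and 3.34-fold lower, while the cadherin Cdh15 was 1.58-fold and 1.90-fold higher. Of the G1 cyclins and kinases, 2 of 11 were higher and 0 lower in EOM, and 3 of 12 and 1 in TA (1 and 1 with TMM factors). Of the S phase genes 2 of 13 were higher in EOM and 4 of 13 in TA (2 with TMM factors), with 0 lower. Over all genes the shares higher were 8.67% and 12.6%. Ccnd3 was 2.55-fold and 3.54-fold higher, Cdkn1b, a CDK inhibitor, 1.46-fold and 2.06-fold, and Dut, an S phase gene, 2.54-fold and 3.28-fold. Only 4 of 20 genes of G2 and M phase in EOM and 3 in TA reached 5 CPM, at summed levels of 25.9 and 20.1, and 6.99 and 24.0 CPM.

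**Figure D4:**
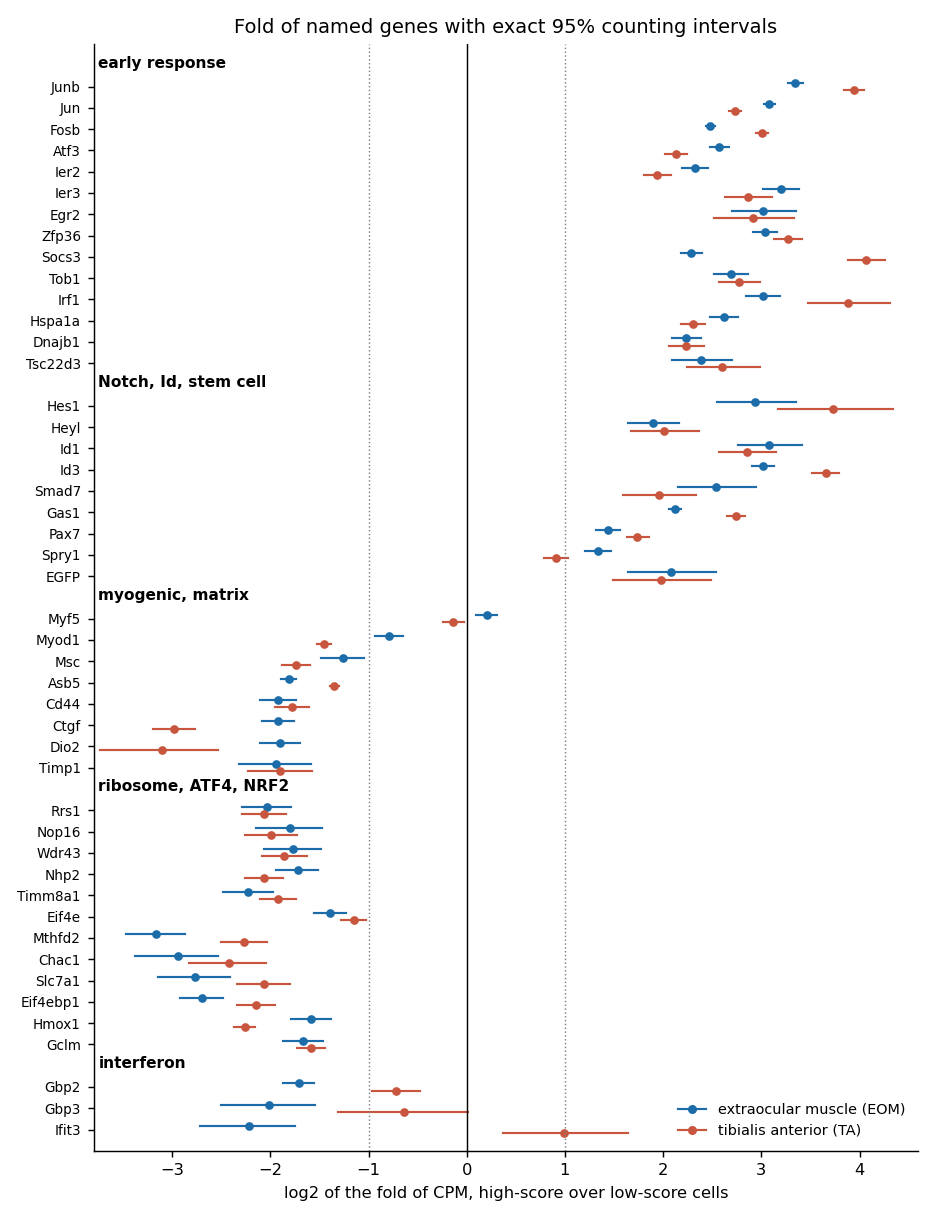
Log2 of the fold of CPM, high-score over low-score cells (x axis), with exact 95% counting intervals, for named genes by group in EOM (blue) and TA (red); dotted lines mark 2-fold. The muscles sit side by side for most genes, and part most clearly at Ifit3, left of 0 in EOM and right of 0 in TA. Myf5 also lies on opposite sides of 0, close to it in both muscles.

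In the low-score cells, genes that build ribosomes were higher. All 27 nucleolar and ribosome assembly genes measured had a ratio below 0 in both muscles, 12 were at least 2-fold lower in the high-score cells of EOM and 18 in those of TA, 0 were higher, and the medians were -0.80 and -1.24. Rrs1, needed for the large subunit, was at 152, 86.7, 46.0 and 37.2 CPM over the EOM groups (4.09-fold between the ends, 3.44 to 4.88) and 223, 177, 111 and 53.5 in TA (4.17-fold, 3.58 to 4.88). Nhp2, a protein of the snoRNPs that modify ribosomal RNA, was 3.30-fold and 4.18-fold lower, Wdr43 3.41-fold and 3.62-fold, Nop16 3.49-fold and 3.97-fold, and, outside the list, Nifk 5.33-fold and 4.33-fold and Ppan 4.41-fold and 3.90-fold. The intermembrane chaperones Timm8a1 (4.67-fold and 3.79-fold) and Timm10 (4.32-fold and 3.85-fold), which carry proteins into mitochondria, went with them. Of 20 translation factors 3 were lower in each muscle and 0 higher (in TA 1 was lower within depth bins and 5 with TMM factors), with Eif2s2 at 1013 and 365 CPM in EOM and 1282 and 535 in TA, and Eif4e, the cap-binding protein, 2.62-fold and 2.22-fold lower. Eif4a2 stood apart, at 218 and 371 CPM, and 143 and 236. The ribosomal protein genes themselves had medians of -0.07 and -0.06 over 80 genes, with 1 lower and 0 higher in each muscle.

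Amino acid response genes formed the other large group on that side. ATF4 is the factor that turns on amino acid import and synthesis when translation initiation is restrained. Of 25 ATF4 and unfolded protein genes measured in EOM 11 were lower and 1 higher (median -0.92), and of 24 in TA 11 and 1 (-0.73). Mthfd2, a mitochondrial folate enzyme, was at 217, 82.3, 47.5 and 24.3 CPM in EOM (8.96-fold, 7.33 to 11.1) and 234, 149, 91.8 and 48.8 in TA (4.80-fold, 4.10 to 5.65). Chac1, which degrades glutathione, was 7.69-fold and 5.36-fold lower, Aars, an aminoacyl-tRNA synthetase, 3.44-fold and 2.40-fold, and, outside the list, the arginine transporter Slc7a1 6.83-fold and 4.19-fold and the translation repressor Eif4ebp1 6.48-fold and 4.42-fold. Members that answer other stresses too went the other way: Ddit4, an inhibitor of mTORC1, was 2.40-fold and 2.14-fold higher, Ppp1r15a 1.90-fold in both and Ddit3 1.72-fold and 1.80-fold.

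Some antioxidant genes were also higher in low-score cells. Of 23 metallothionein and NRF2 genes 9 were lower in the high-score cells of EOM, and 6 of 24 in TA, with 0 higher in either. Hmox1, heme oxygenase, was at 179 and 59.9 CPM in EOM (2.99-fold) and 1079 and 225 in TA (4.79-fold, 4.45 to 5.16), Gclm, of glutathione synthesis, was 3.17-fold and 2.99-fold lower and Srxn1 3.02-fold and 2.46-fold. The metallothionein Mt2 was at 1842 and 834 CPM in EOM and 4522 and 3624 in TA. The matrix list had no common direction, with 1 of 39 genes higher and 2 lower in high-score cells of EOM and 5 and 3 in TA (2 and 3 of 36 without the cells of other types). Ctgf and Cyr61, sister matrix proteins and both targets of the mechanosensor YAP, went in opposite directions. Ctgf was at 331, 149, 91.3 and 87.3 CPM in EOM (3.79-fold lower) and 422, 283, 118 and 53.5 in TA (7.88-fold, 6.80 to 9.16). Cyr61, an immediate early gene as well, was at 44.8, 78.0, 94.6 and 238 CPM in EOM (5.31-fold higher) and 96.0, 154, 174 and 376 in TA (3.91-fold). Cd44, a hyaluronan receptor, was 3.79-fold and 3.43-fold lower, Timp1, a metalloprotease inhibitor, 3.85-fold and 3.73-fold, and Dio2, which activates thyroid hormone, 3.73-fold and 8.59-fold.

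**Figure D5:**
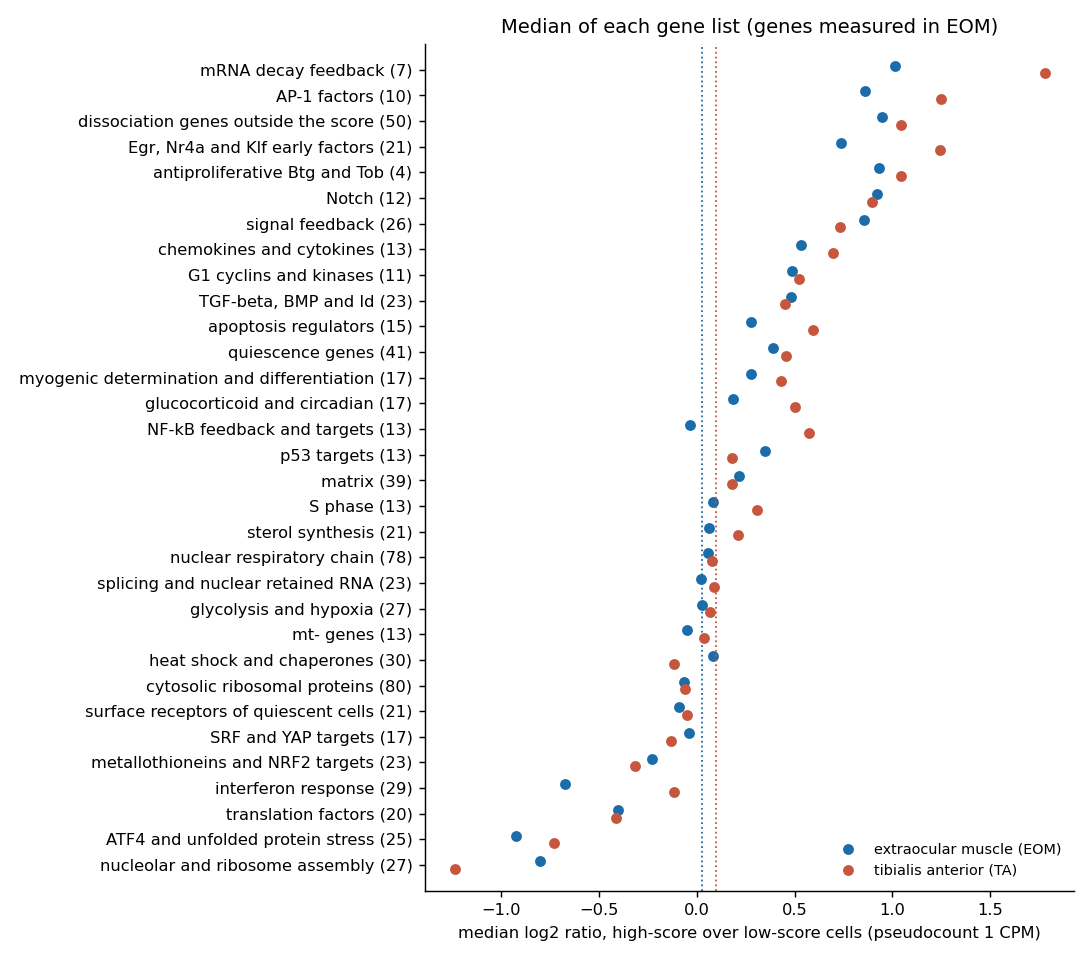
Median log2 ratio, high-score over low-score cells (x axis), of the gene lists in EOM (blue) and TA (red), with the number of members measured in EOM in brackets and dotted lines at the median of all genes at 5 CPM or more. mRNA decay genes lie furthest to the right, nucleolar and ATF4 genes furthest to the left, and ribosomal, respiratory and mt- genes near the dotted lines. The G2 and M phase list, with 4 genes measured in EOM and 3 in TA, is not drawn.

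The mt- genes and the nuclear respiratory chain genes differed little between the ends, while Neat1, and in TA Malat1, were higher in high-score cells. Cells over the mt- limit had been left out beforehand, so the mt- values cannot show whether damage differed between the ends. The 13 mt- genes had medians of -0.05 and 0.04 and the 78 nuclear respiratory chain genes 0.06 and 0.08, with 0 called in either direction. Malat1, a nuclear RNA that is enriched when cytoplasm is lost, was at 35690 and 38670 CPM in EOM and 32200 and 38510 in TA. Its EOM log2 ratio of 0.12 is smaller than the scaling shift given above and carries no direction. Neat1, another nuclear RNA, was 1.36-fold and 1.58-fold higher. The part of RNA quality in the results was not tested beyond score groups taken within bins of mt- share, given with the other settings at the end.

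The comparison was named as a dissociation response against a calmer state. Whether dissociation was the source of the difference was not tested. Of the dissociation genes outside the score, 24 of 50 in EOM and 26 of 50 in TA were called higher in high-score cells. In low-score cells, genes of ribosome assembly, many of the amino acid response, some antioxidant genes, and Myod1 (not called in EOM) were higher. Whether the low-score cells were in a calmer state was not tested either. Among low-score cells, those with a score of 0 had Mthfd2 at 268 CPM in EOM and 242 in TA, and the others 188 and 228. At the upper end, the part with the highest scores had it at 3.98 and 19.98 CPM. Pax7 in these 3 parts was at 136, 179 and 532 CPM in EOM and 174, 221 and 916 in TA. The cells are therefore called by their score here.

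The activated libraries set a level for both ends. Of the genes lower in high-score cells, 28.4% in EOM and 33.9% in TA had an activated level above that of low-score cells, against 42.0% and 43.9% of all tested genes. Of the genes higher in high-score cells, 17.1% and 23.6% had an activated level above that of high-score cells, against 45.4% and 46.0% of all tested. The choice of genes by a high bottom or top level itself lowers these shares. Among genes named above, activated EOM and TA cells had Myod1 at 646 and 1190 CPM and Mthfd2 at 242 and 238, while Pax7 was at 76.1 and 54.3, Fosb at 29.4 and 6.33 and Asb5 at 275 and 265.

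Promoters of the genes called in both muscles were searched on both strands of the 250 bases before the start, with 128 of 173 higher and 186 of 236 lower genes matched by symbol to RefSeq (161 and 220 windows). A CArG box, the SRF site, lay in 11 windows of the higher genes (6.83%) and 3 of the lower (1.36%). The shares were 1.5% for the genes at 20 CPM or more in both muscles and 1.47% for all promoters. Some genes gave more than 1 window, so a site may be counted more than once. TATAAA lay in 13.7% and 8.18%, against 6.31% and 12.4%, and the GC box GGGCGG in 75.8% and 58.2%, against 62.3% and 32.7%. The CRE core TGACG, which the whole CRE contains, was no more frequent in the higher genes, at 30.4% and 34.1% against 30.9% of the measured genes, nor was the whole CRE TGACGTCA at 1.86% and 3.64% against 3.35%. The AP-1 site TGANTCA lay in 5.59% and 6.82%, against 4.18%, and the NF-kB site in 8.70% and 7.27%, against 8.82%. These are matches of letters in a short window and say nothing of binding.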

How the data were processed

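Single-cell RNA was measured in 4 libraries. The values are UMI counts per gene and barcode, deposited by the authors as matrices. Per the submitters' processing notes, Cell Ranger 3.0.2 and mm10 were used; no source used here gives the annotation release or how barcodes were called as cells. Of 31055 features, 31011 matched GENCODE vM21 by identifier.

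Cells with 2000 or more UMIs and at most 10% of UMIs from mt- genes were kept, and no doublet caller was run. UMIs were summed over each score group and scaled to the group's total (CPM). Log2 ratios used a pseudocount of 1 CPM. A gene was called at 2-fold with 20 CPM or more in either end group, and list members were counted from 5 CPM. With 1 library per group no test was possible. Folds carry exact 95% intervals of counting error. 3 UMIs, the limit that a count of 0 allows, were worth 0.631 to 0.693 CPM in EOM and 0.699 to 0.799 in TA. Genes were named by rule: the 12 most unequal per muscle and direction at 50 CPM or more, the 12 most unequal in both muscles, members of the early response lists, up to 3 members per other list and direction, and stem cell regulators. The members and the lists were chosen with earlier results of these data known. The scripts were tested on simulated data. Python 3.11.15, numpy 2.4.6 and scipy 1.17.1 were used, and edgeR 4.0.16 for TMM factors only.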

Additional observations from a re-analysis of the deposited data

Results flagged for a closer look

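Ifit3, an interferon-induced gene, lay on opposite sides in the 2 muscles. Its log2 ratio of high-score over low-score cells was -2.11 in EOM (47.3 and 10.2 CPM, low-score and high-score) and 0.91 in TA (8.16 and 16.2 CPM). Both TA levels are below the 20 CPM limit for calling. With 1 library per muscle the difference was not tested.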

How the results depend on the processing

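The counts of genes higher and lower in high-score cells depended on how many cells and genes entered. With the 10% of cells at each end they were 651 and 732 in EOM and 825 and 675 in TA, and with 50% at each end 82 and 107, and 138 and 142. With genes at 5 CPM or more they were 829 and 665 in EOM and 1179 and 620 in TA, with genes at 50 CPM or more 129 and 238, and 173 and 250, and at 1.5-fold 753 and 1036, and 892 and 1022. At most 5% mt- UMIs left 62 cells per end in EOM and 10 in TA and gave 912 and 1003, and 2477 and 1697. Median-of-ratios factors gave 210 and 561, and 259 and 640. Under the remaining settings the EOM counts ran from 248 to 329 higher and from 360 to 484 lower, and the TA counts from 283 to 422 and from 344 to 575. Score groups taken within bins of mt- share gave 289 and 409, and 378 and 397, and taking the score and the sums from separate UMIs 313 and 420, and 393 and 411. Log2 ratios were followed under 23 settings for 109 genes, not for all 270 genes named by the rule. Of these 5014 ratios 3806 stayed within the counting interval of the main value, 1194 moved beyond it and 14 changed sign. At most 5% mt- turned Cxcl5 (1.59) and Msc (0.031) in EOM, and in TA Asb5 (0.18), Btg3 (1.31), Calcr (-1.21), Ctgf (5.78), Eif4e (0.55), Fosl1 (3.03), Msc (0.18), Nop16 (0.50), Nr1d1 (0.35), Ppan (6.19) and Timm8a1 (0.44). Leaving out all cells with markers of other types, Pmp22 included, gave Dcn -0.28 in TA. The cause of these changes was not tested, beyond the few cells left at 5% mt-. No paired analysis was possible because each group has 1 library and the labels give no replicate numbers.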
